A study of Mus musculus with 4 samples.

Results

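Levels of 8 genes of cholesterol synthesis and its feedback were examined in RNA sequencing data from gastric tumours of WT mice and of mice that lack the kinase gene Mst4. The genes were HMGCS1, IDI1, FDPS, FDFT1, SQLE, LSS and DHCR7, which encode enzymes, and INSIG1, which encodes a sensor protein. They were taken by symbol from a deposited table of 23258 genes, and all 8 were present and passed the filter on low counts, which left 16030 genes. The series held 4 libraries, 2 labelled WT and 2 labelled Mst4 KO, all from gastric tumours of C57BL/6 mice of both sexes at 20 weeks after birth. The KO animals carried a floxed Mst4 gene (Mst4F/F) and a Cre transgene. The sources used here name no agent that started the tumours or the recombination. The labels do not say whether the 2 libraries of each genotype are separate animals, and p-values here reflect library-to-library spread that could be technical.

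All 23258 rows carry human identifiers and symbols although the labels give mouse. Genes are therefore named by human symbol, and the genotypes and the tissue are those of the labels. Which species or cells were sequenced is not settled by the labels and the deposited values. Library totals ranged from 18613533 to 30505281 counts, with WT replicate 1 the deepest. The targeted gene, STK26 (MST4), measured 54.1 and 54.8 CPM in the WT pair but 9.06 and 7.36 CPM in the KO pair, where CPM is the count scaled to library size with TMM factors. Its log2 fold change of -2.73 (SE 0.26) had an adjusted p of 0.834 in edgeR and of 8.49e-12 in DESeq2. WT replicate 1 stood apart from the other 3 libraries: 7.79% of all genes tested were over 2-fold lower and 12.9% over 2-fold higher in it than in WT replicate 2. Between the KO libraries 1.65% were over 2-fold apart. Of the 8 gland markers of the labelled tissue in the table, 6 (TFF1, TFF2, MUC5AC, PGC, GIF and ATP4B) lay below 1 CPM in every library, TFF2 at 0 counts. With PSCA and ATP4A, the markers that passed the filter, the 8 summed to 241 and 128 CPM in the WT libraries but 80.0 and 89.0 CPM under KO. Of these 2 markers, 1 was higher and 1 lower in KO over all 4 libraries, so the sum does not describe both. Of 6 epithelial markers, CDH1 and KRT19 lay below 1 CPM, while EPCAM, KRT8, KRT18 and CLDN4 passed the filter and the 6 summed to between 1094 and 2792 CPM.

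Cholesterol is built from acetyl-CoA through mevalonate, isoprenoid diphosphates, squalene and lanosterol. The transcription factor SREBP2 (gene SREBF2) raises the genes of nearly every step when sterols in the endoplasmic reticulum are scarce. When sterols are plentiful, the membrane proteins INSIG1 and INSIG2 hold SREBP2 and its escort SCAP in the endoplasmic reticulum. INSIG1 is itself an SREBP2 target, so in many cells it moves with the enzymes it restrains.

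The gap between the WT libraries ran in opposite directions for most of the enzymes and for INSIG1. Of the 7 enzymes, 6 were lowest in WT replicate 1, where HMGCS1, IDI1, SQLE and LSS were over 2-fold below WT replicate 2, and INSIG1 was highest there. KO values of 6 of the 8 genes lay between the WT libraries. Values of the genotypes overlapped for 7 of the 8 genes and for 10035 of all 16030 genes tested, so overlap was common. The test over all 4 libraries called 0 of the 8 genes, but it called 0 of all 16030 genes tested, STK26 among them. A missing call there does not show equal levels. WT replicate 1 was the lowest library for 39.9% and the highest for 40.6% of all genes tested, so its place at an end was common. A gap of over 2-fold below WT replicate 2 was not, at 7.79% of all genes against 4 of the 8 genes here. The 8 genes and the lists below were chosen with earlier results of these data known, so such shares are a description, not a test. With 1 library on each side, the gap between the WT libraries has no replicate check. If the libraries hold mixed cells, as bulk tissue does, fewer cells of a type and less RNA per cell cannot be told apart.

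**Figure D1:**
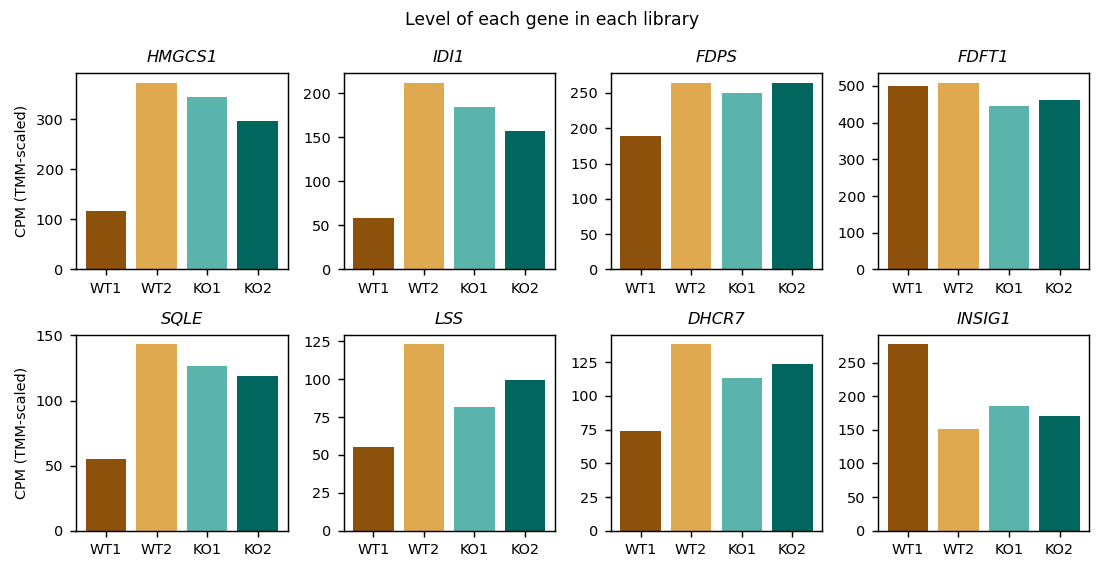
Level of each of the 8 genes in CPM (TMM-scaled, vertical axis from 0, its own scale in each panel) in WT replicates 1 and 2 (WT1, WT2) and KO replicates 1 and 2 (KO1, KO2); each bar is 1 library. WT1 is the lowest bar for 6 of the 7 enzymes and the highest for INSIG1, while FDFT1 differs little, from 446 to 509 CPM.

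The early steps showed the widest gaps. HMGCS1, the cytosolic synthase that makes HMG-CoA (gene number 3157), was at 117 and 374 CPM in the WT replicates, then 345 and 297 CPM in those of KO. It was 3.19-fold higher in WT replicate 2 than in WT replicate 1, and both KO libraries lay between them, nearer to replicate 2. The means were 246 ± 181 CPM in WT and 321 ± 33.8 CPM in KO (SD, n = 2 each), a log2 fold change of 0.39 (SE 0.56) for KO against WT that did not pass (edgeR quasi-likelihood test, adjusted p = 0.861). The spread between the WT libraries was thus larger than the difference between the genotypes.

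IDI1, the isomerase that interconverts the building blocks of isoprenoids (gene number 3422), had the widest gap of the 8. It measured 58.4 and 212 CPM in the WT replicates, with KO at 184 and 157 CPM. WT replicate 2 was thus 3.64-fold above WT replicate 1, and the groups overlapped. The genotype means were 135 ± 109 and 171 ± 19.3 CPM (SD, n = 2 each), with a log2 fold change of 0.34 (SE 0.61).

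The mouse promoters of these genes are shown because SREBP2 acts there together with the factor NF-Y. RefSeq promoters of the mouse build GRCm38.p6 matched 5 of the 8 symbols when letter case was ignored. The expression table lists human genes, so these are the promoters of the mouse counterparts, 250 bases up to the transcript start, written 5′ to 3′. Capitals mark a core of the sterol regulatory element, TCACNCCA, and the NF-Y box, CCAAT, on either strand. The core ends and the box begins with CCA, so matches can share letters, which none did in these windows. A match is a description, not a site. Hmgcs1 lies at chr13:119690101-119690350, Idi1 at chr13:8885356-8885605 and Insig1 at chr5:28071162-28071411, all on the plus strand.
Hmgcs1: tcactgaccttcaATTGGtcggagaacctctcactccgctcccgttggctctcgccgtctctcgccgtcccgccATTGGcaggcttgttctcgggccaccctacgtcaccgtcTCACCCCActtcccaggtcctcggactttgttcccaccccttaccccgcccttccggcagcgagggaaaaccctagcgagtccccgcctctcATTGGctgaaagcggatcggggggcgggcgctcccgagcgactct
Idi1: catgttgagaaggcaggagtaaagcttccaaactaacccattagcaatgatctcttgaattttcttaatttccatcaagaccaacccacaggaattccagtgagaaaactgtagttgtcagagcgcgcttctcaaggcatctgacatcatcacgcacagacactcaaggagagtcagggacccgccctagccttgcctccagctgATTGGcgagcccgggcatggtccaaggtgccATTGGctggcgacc
Insig1: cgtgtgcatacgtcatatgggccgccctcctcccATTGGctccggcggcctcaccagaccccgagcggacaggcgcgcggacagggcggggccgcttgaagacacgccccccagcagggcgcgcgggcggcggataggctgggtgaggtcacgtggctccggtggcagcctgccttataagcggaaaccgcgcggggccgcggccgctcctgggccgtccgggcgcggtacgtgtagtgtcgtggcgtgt
The window of Hmgcs1 held the sterol core once, as TCACCCCA starting 137 bases before the transcript start, and the NF-Y box 3 times. Idi1 held the NF-Y box 2 times and Insig1 once, with no match to the sterol core. Of all 32851 promoters in the RefSeq table, 3.67% held the sterol core and 33.8% the NF-Y box in a window of the same length, and 1.29% held both. Lss and one of the Dhcr7 windows also held the NF-Y box and none of their windows the sterol core.

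The next enzymes, which build and join the isoprenoid chains, differed less. FDPS, the synthase of farnesyl diphosphate (gene number 2224), was at 189 and 264 CPM in the WT replicates, then 249 and 265 CPM in those of KO. KO replicate 2 was level with WT replicate 2, and WT replicate 1 was lower than the rest. The log2 fold change for KO against WT was 0.18 (SE 0.26, edgeR adjusted p = 0.859).

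FDFT1, the squalene synthase that takes farnesyl diphosphate into sterols (gene number 2222), was the exception among the enzymes. Its levels were 499.7 and 509 CPM in the WT libraries and 446 and 460.2 CPM in the KO libraries. It alone of the 8 had both KO values below both WT values, which held for 19.1% of all genes tested (both above, 18.3%), and the log2 fold change was -0.15 (SE 0.21, edgeR adjusted p = 0.856). On the authors' length-scaled values, read as FPKM, FDFT1 lay instead at 88.0 in WT replicate 1 and at 146, 122 and 121 in WT replicate 2 and the KO libraries. WT replicate 1 was thus 98.2% of WT replicate 2 by CPM and 60.1% by FPKM, and the sign of the genotype difference changed to 0.10 (log2, FPKM + 1). The length implied by count and FPKM together was 5.49 kb for FDFT1 in WT replicate 1 and 3.42, 3.74 and 3.90 kb in the others. For the other 7 genes the implied length in WT replicate 1 and WT replicate 2 differed far less, from 2.32 against 2.01 kb in IDI1 to 3.56 against 3.58 kb in INSIG1.

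The sterol-forming steps followed HMGCS1. SQLE, the monooxygenase that oxidises squalene and a control point of the pathway (gene number 6713), was at 55.2 and 144 CPM (WT), with 127 and 119 CPM under KO. LSS, which closes the rings to lanosterol (gene number 4047), was at 55.4 and 123 CPM in the WT pair against 81.5 and 99.6 CPM in the KO pair. DHCR7, the reductase of the last step to cholesterol (gene number 1717), was at 73.6 and 139 CPM (WT), with 113 and 123 CPM under KO. In each of these 3 genes WT replicate 1 was lowest, WT replicate 2 was highest and the KO libraries lay between. The ratio of WT replicate 2 to WT replicate 1 was 2.60 for SQLE, 2.22 for LSS and 1.88 for DHCR7. The log2 fold changes for KO against WT were 0.30 (SE 0.47), 0.02 (SE 0.42) and 0.16 (SE 0.35).

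INSIG1 (gene number 3638) ran the other way. WT replicate 1 had 278 CPM, WT replicate 2 had 152 CPM and the KO pair had 185 and 171 CPM. WT replicate 1 was 1.83-fold above WT replicate 2, and the KO libraries lay between the WT libraries, nearer to replicate 2. The genotype means were 215 ± 89.2 and 178 ± 9.99 CPM (SD, n = 2 each), and the log2 fold change was -0.27 (SE 0.34, edgeR adjusted p = 0.848). FPKM gave the same order of libraries, 75.3 and 41.7 in WT and 53.0 and 49.3 in KO.

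Per length, FDPS was the most abundant of the 8 transcripts, with a mean FPKM of 165 over the 4 libraries, followed by FDFT1 at 119. HMGCS1 and IDI1 came next at 74.1 and 74.0, then INSIG1 at 54.8, DHCR7 at 38.6, SQLE at 34.3 and LSS at 20.2. The ranges over the libraries overlapped between all neighbours in this order. The summed CPM of the 7 enzymes was 1049 in WT replicate 1, 1765 in WT replicate 2 and 1546 and 1521 in the KO libraries. Their summed FPKM, in the same order, was 315, 646, 576 and 568, a wider gap within WT. Counts behind the 8 genes ran from 1556 to 14729.38 per library, so that counting error was at most 2.54% of a value.

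Over all 4 libraries, the edgeR test called 0 of the 8 genes at adjusted p under 0.05, where 0% of all genes tested were called. The adjusted p of the 8 ran from 0.848 to 0.991, and 0 of 8 reached an unadjusted p under 0.05, against 4.17% of all genes (668 of 16030). DESeq2 called 0 of the 8, with 0.25% of all genes called. The median log2 fold change of the 8 was 0.17, against -0.01 over all genes tested.

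By CPM, the direction of every difference but that of FDFT1 depended on which WT library was compared with KO. By FPKM that of FDFT1 depended on it too. Its values were 88.0 and 146 in WT replicates 1 and 2, and 122 and 121 in KO. Without WT replicate 1, edgeR called 6.46% of all genes, and 0 of the 8. In that fit 7 of the 8 were lower in KO, with a median log2 fold change of -0.22 against 0.01 over all genes. LSS came nearest to the threshold (log2 fold change -0.44, SE 0.15, adjusted p = 0.0514), and values of the other enzymes ran from -0.31 for IDI1 to -0.04 for FDPS. INSIG1 was at 0.23 (SE 0.15, adjusted p = 0.448).

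Without WT replicate 2, edgeR called 51.3% of all genes, 25.2% higher and 26.1% lower in KO. It called 6 of the 8 higher and INSIG1 lower. HMGCS1 rose by 1.48 (SE 0.16, adjusted p = 1.72e-19), IDI1 by 1.57 (SE 0.17) and SQLE by 1.18 (SE 0.17) on the log2 scale, and INSIG1 fell by 0.62 (SE 0.14, adjusted p = 7.68e-05). FDFT1 did not pass (log2 fold change -0.12, SE 0.14, adjusted p = 0.514). Both of these fits estimate spread from the KO pair alone and assume that a lone WT library varies as little. The spread within WT is therefore not part of such a call.

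**Figure D2:**
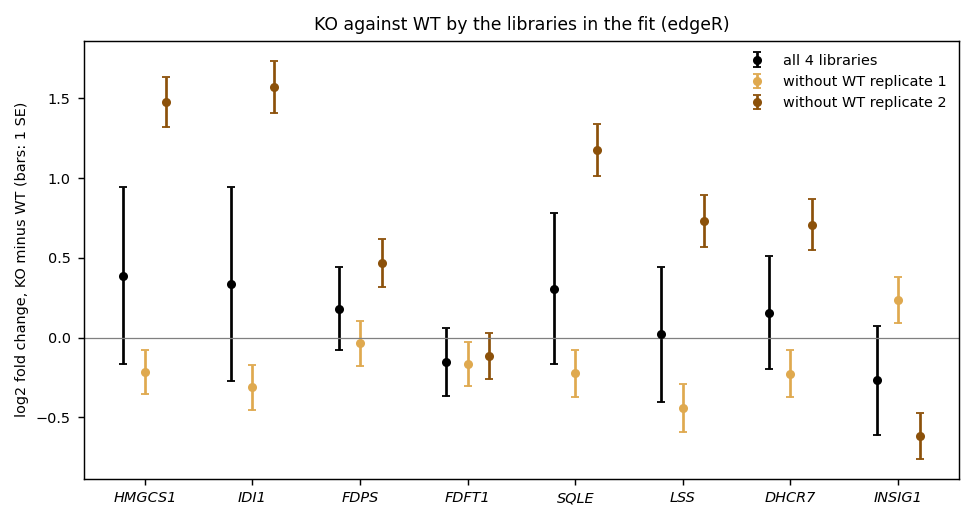
Log2 fold change of KO against WT (vertical axis) for the 8 genes from edgeR with all 4 libraries, without WT replicate 1 and without WT replicate 2; points are estimates and bars 1 SE. Without WT replicate 2 the 6 enzymes other than FDFT1 lie above 0, from 0.47 to 1.57, and without WT replicate 1 all 7 enzymes lie below 0.

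The wider pathway showed the same split of the WT libraries. With the 7 enzymes above, 23 enzymes of sterol synthesis were tested, and 19 of them were lowest in WT replicate 1 (39.9% of all genes) and 12 were over 2-fold below WT replicate 2 (7.79% of all genes). Their median log2 difference of WT replicate 1 from WT replicate 2 was -1.15, against 0.01 over all genes tested. CYP51A1, the lanosterol demethylase, was at 66.2 and 198 CPM (WT), with 164 and 154 CPM under KO. HSD17B7, a reductase of the sterol ring, was at 17.5 and 51.7 CPM in the WT pair against 51.0 and 46.2 CPM in the KO pair. In both genes the KO libraries lay nearer to WT replicate 2 than to WT replicate 1.

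The widest gap within WT, chosen after the values were seen, was that of ACAT2, the cytosolic thiolase at the start of the pathway. ACAT2 was at 9.81 and 56.4 CPM (WT), with 39.6 and 23.8 CPM under KO. MVK, mevalonate kinase, was at 6.48 and 30.2 CPM in the WT pair against 25.5 and 29.6 CPM in the KO pair. In these enzymes too WT replicate 1 lay below every other library. FDFT1, MVD, TM7SF2 and SC5D were the 4 of the 23 that were not lowest there. MVD, mevalonate diphosphate decarboxylase, was highest in WT replicate 1, at 56.0 CPM, with 45.6 CPM in WT replicate 2 but 36.0 and 50.2 CPM for KO. TM7SF2, a sterol reductase, was at 5.73 and 3.24 CPM (WT), with 0 and 4.91 CPM under KO. LBR, the other reductase of that step, was at 85.9 and 142 CPM in the WT pair against 153 and 131 CPM in the KO pair.

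**Figure D3:**
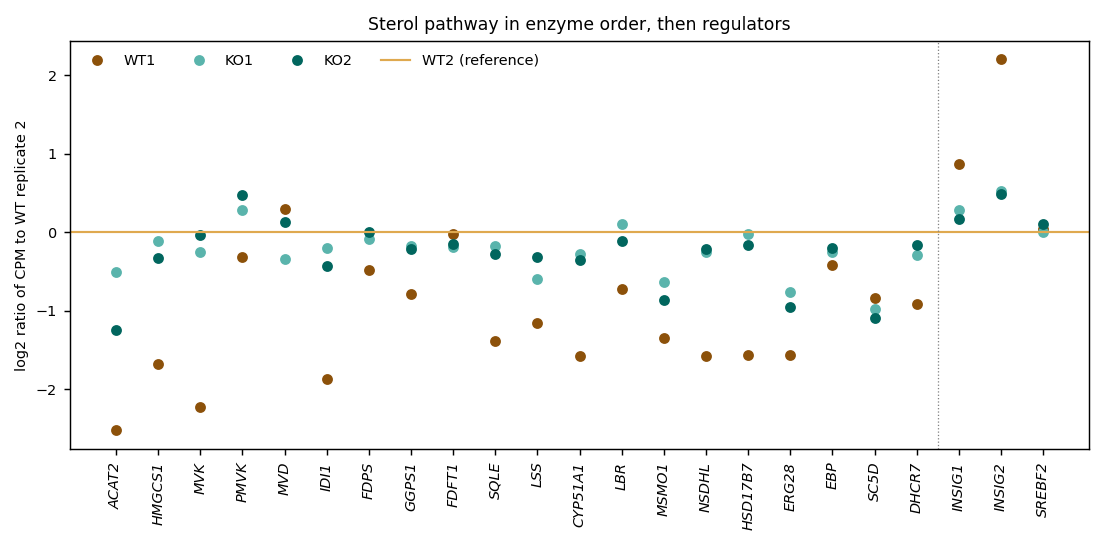
Log2 ratio of each library's CPM to that of WT replicate 2 (horizontal line at 0), for sterol enzymes in the order of the pathway and, right of the dotted line, INSIG1, INSIG2 and SREBF2; TM7SF2 is left out because it had 0 counts in KO1. WT1 points lie below those of the KO libraries for most enzymes, and above them for INSIG1 and INSIG2.

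Beside the 8 genes, 16 further sterol enzymes were tested. All 4 libraries gave 0 calls among them, where 0% of all genes were called, and a median log2 fold change of 0.06. Of these, PMVK, phosphomevalonate kinase, had both KO values above both WT values, at 21.5 and 26.7 CPM (WT), with 32.7 and 37.3 CPM under KO (log2 fold change 0.54, SE 0.25, adjusted p = 0.834). SC5D, the desaturase of the sterol ring, had both below, at 22.3 and 39.7 CPM in the WT pair against 20.2 and 18.58 CPM in the KO pair (log2 fold change -0.68, SE 0.35).

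Against WT replicate 2 alone, 14 of these 16 were lower in KO and 4 were called lower, where 3.93% of all genes were called lower and 2.54% higher. SC5D fell by 1.03 (SE 0.17, edgeR adjusted p = 2.91e-07) and MSMO1, the methylsterol oxidase, by 0.74 (SE 0.15, adjusted p = 4.45e-05). ERG28, a scaffold of the demethylation enzymes, and ACAT2 were the other two, with log2 fold changes of -0.85 (SE 0.16) and -0.83 (SE 0.17). MSMO1 was at 61.6 and 156 CPM (WT), with 101 and 86.2 CPM under KO, and ERG28 at 31.4 and 92.9 CPM in the WT pair against 54.7 and 48.3 CPM in the KO pair. In both, WT replicate 1 lay below the KO libraries, opposite to WT replicate 2. Against WT replicate 1 alone, 13 of the 16 were higher in KO, with 12 called higher (25.2% of all genes) and 0 called lower (26.1% of all genes), and the median log2 fold change was 0.73.

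The transcripts of the sterol sensor itself differed in part. SREBF2 was almost level, at 204 and 198 CPM in the WT pair against 199 and 214 CPM in the KO pair. SCAP was at 93.9 and 83.0 CPM (WT), with 72.9 and 95.5 CPM under KO. SREBF1, whose product SREBP1 acts mainly on fatty acid genes, was at 168 and 215 CPM in the WT pair against 194 and 239 CPM in the KO pair. INSIG2, the paralogue of INSIG1 that SREBP2 does not induce in the same way, was at 91.2 CPM in WT replicate 1, while WT replicate 2 had 19.8 CPM and KO 28.4 and 27.7 CPM. It was 4.61-fold higher in WT replicate 1 than in WT replicate 2. INSIG2 did not pass over all 4 libraries (log2 fold change -0.99, SE 0.70, edgeR adjusted p = 0.834). Its log2 fold change was 0.51 (SE 0.18) without WT replicate 1 but -1.68 (SE 0.16) without WT replicate 2.

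In the whole list of SREBP processing and sterol sensing, 0 of 12 genes were called over all 4 libraries, where 0% of all genes were. The median log2 fold change of the 12 was 0.02 without WT replicate 1 and 0.08 without WT replicate 2. The median log2 difference of WT replicate 1 from WT replicate 2 was -0.04 in this list. UBE2G2, a ubiquitin-conjugating enzyme that works with INSIG proteins, was at 184 and 87.5 CPM (WT), with 81.7 and 84.5 CPM under KO. MBTPS2, the protease that releases SREBP from the Golgi membrane, was at 64.1 and 97.4 CPM in the WT pair against 109 and 99.8 CPM in the KO pair. C12orf49 (SPRING1), which supports SREBP processing, was at 42.4 and 63.0 CPM (WT), with 68.7 and 66.3 CPM under KO.

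SREBP2 targets outside the synthesis pathway did not all follow the enzymes. STARD4, a carrier of cholesterol between membranes, was at 62.5 and 72.8 CPM in the WT pair against 75.8 and 60.4 CPM in the KO pair. TMEM97, an endoplasmic reticulum protein that binds the lysosomal exporter NPC1, had 78.9 and 142 CPM in the WT replicates, with KO at 138 and 127 CPM. The ratio of WT replicate 2 to WT replicate 1 was 1.17 for STARD4 and 1.80 for TMEM97, which, like most of the enzymes, was lowest in WT replicate 1 and highest in WT replicate 2. Of the 9 uptake and transport genes tested, 0 were over 2-fold lower in WT replicate 1 than in WT replicate 2. Over all genes tested the share was 7.79%, so a count of 0 among so few genes does not set this list apart.

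Both KO values lay below both WT values for 5 of these 9 uptake and transport genes and above them for 0, against 19.1% and 18.3% of all genes, and 0 of 9 were called over all 4 libraries. SCARB1, a receptor of HDL, was at 482 and 253.5 CPM (WT), with 199 and 234 CPM under KO. NPC1 and NPC2, which export cholesterol from lysosomes, were at 95.3 and 123 CPM and at 219.6 and 119.7 CPM in WT, and at 82.4 and 80.7 CPM and at 106 and 114 CPM in KO. Without WT replicate 1, edgeR called 2 of the 9 lower (3.93% of all genes) and 0 higher (2.54%), among them NPC1, which fell by 0.59 (SE 0.15, adjusted p = 0.00343). Without WT replicate 2 it called 3 of the 9 higher (25.2% of all genes) and 2 lower (26.1%). Genes of the LXR receptors, efflux and esterification gave 0 calls among 8 tested over all 4 libraries, where 0% of all genes were called. The median log2 fold change of these 8 was 0.21 without WT replicate 1 and 0.18 without WT replicate 2. ABCG1, a sterol exporter, was at 80.5 CPM in WT replicate 1, while WT replicate 2 had 19.5 CPM and KO 23.3 and 23.7 CPM. ABCA1, another exporter, was at 32.6 and 32.4 CPM in the WT pair against 39.6 and 37.0 CPM in the KO pair. SOAT1, which esterifies cholesterol, was at 70.2 and 121 CPM (WT), with 125 and 112 CPM under KO, and the LXR gene NR1H2 at 51.2 and 45.1 CPM in the WT pair against 50.0 and 63.4 CPM in the KO pair.

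Fatty acid synthesis, the branch that SREBP1 favours, showed smaller gaps between the WT libraries. The median log2 difference of WT replicate 1 from WT replicate 2 was -0.57 over its 12 genes. There 1 of 12 was over 2-fold lower, near the share of 7.79% of all genes. FASN, the fatty acid synthase, was at 376 and 561 CPM (WT), with 449 and 605 CPM under KO, and SCD, the stearoyl-CoA desaturase, at 1548 and 1745 CPM in the WT pair against 1634 and 1528 CPM in the KO pair. Over all 4 libraries, edgeR called 0 of the 12 (0% of all genes), with 0 at unadjusted p under 0.05 (4.17% of all genes). DESeq2 called 0 of the 12 (0.25% of all genes). ACLY, which makes the acetyl-CoA that feeds both branches, was at 215 and 365 CPM (WT), with 198 and 205 CPM under KO. It fell by 0.86 (SE 0.14, edgeR adjusted p = 8.31e-08) without WT replicate 1. ACSL3 and ACSS2, which activate fatty acids and acetate, were also called lower there (adjusted p = 0.0468 and 0.04996), which made 3 of 12 lower (3.93% of all genes) and 0 higher. Without WT replicate 2, edgeR called 7 of the 12 higher (25.2% of all genes) and 0 lower (26.1%), with ACSL3 and ACSS2 among those higher, at log2 fold changes of 0.41 and 0.39. For ACACA, ELOVL5 and FADS1, the other genes of the list with the smallest p, the log2 fold changes over all 4 libraries were 0.35 (SE 0.28), -0.24 (SE 0.22) and 0.30 (SE 0.22).

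Branches that use isoprenoids for ubiquinone, dolichol and protein prenylation shared the low values of WT replicate 1. There 9 of 11 genes were lowest, against 39.9% of all genes, with a median log2 difference of -0.87 from WT replicate 2. Of the 9, 1 had 0 counts in WT replicate 1, with 165 in WT replicate 2 and 288 and 143 in KO. The KO pair lay above the WT pair for 5 of 11, against 18.3% of all genes. Over all 4 libraries 0 of the 11 were called, where 0% of all genes were. ICMT, which methylates prenylated proteins, was at 132 and 171 CPM in the WT pair against 215 and 212 CPM in the KO pair (log2 fold change 0.49, SE 0.24). Log2 fold changes of 0.36 (SE 0.25) were found for PGGT1B, a prenyltransferase subunit, 0.53 (SE 0.39) for COQ2, a ubiquinone enzyme, and 0.51 (SE 0.38) for RCE1, a protease of prenylated proteins.

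**Figure D4:**
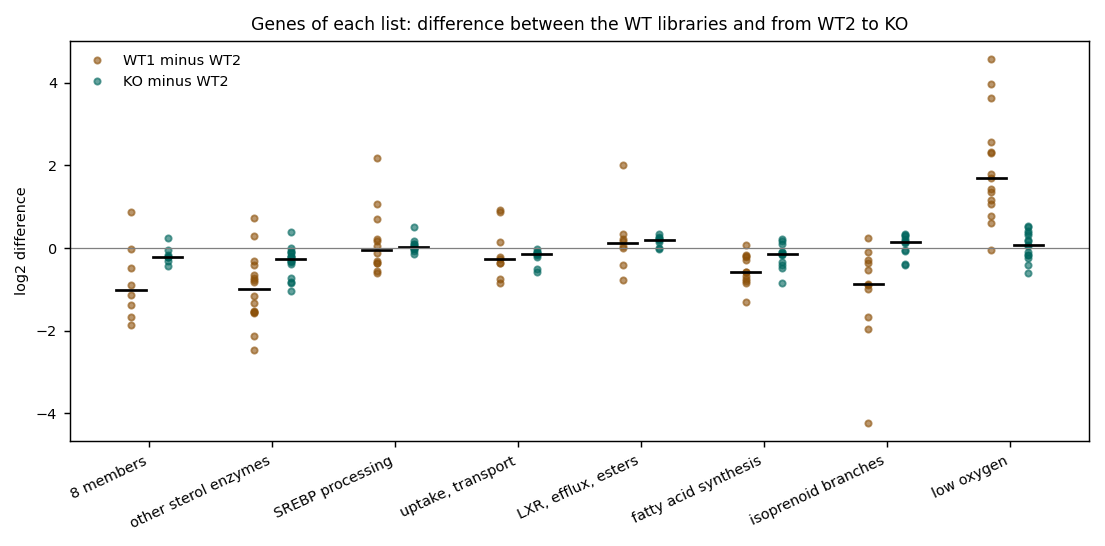
Log2 difference (vertical axis) of WT replicate 1 from WT replicate 2, from log2(CPM + 0.5), and of KO from WT replicate 2, from edgeR without WT replicate 1; each point is a tested gene of the list named on the horizontal axis and black bars are medians. The medians of WT1 minus WT2 are -1.03 for the 8 genes and -0.99 for the other sterol enzymes, while that of genes induced by low oxygen is 1.68.

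Other gene groups separated WT replicate 1 as well. Of 15 genes induced by low oxygen, 14 were highest in that library and 12 were over 2-fold above WT replicate 2 (12.9% of all genes), and their summed level was 15485 CPM there, 6432 CPM in WT replicate 2 and 5614 and 5689 CPM in KO. NDRG1, one of them, had 3970 CPM in WT replicate 1 against 166 CPM in WT replicate 2 and 179 and 198 CPM under KO. ANKRD37, another, had 78.0 CPM in WT replicate 1 against 5.89, 6.60 and 6.52 CPM. The glycolytic kinase PGK1 was at 3440 and 1286 CPM (WT), with 854 and 833 CPM under KO. BNIP3, of mitophagy, was at 291 and 90.3 CPM in the WT pair against 71.1 and 65.7 CPM in the KO pair.

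Markers of other cell types differed between libraries too. The 6 epithelial markers summed to 1094 CPM in WT replicate 1, 2792 CPM in WT replicate 2 and 1987 and 2279 CPM in KO. The 8 fibroblast markers summed to 195 and 141 CPM (WT), with 117 and 137 CPM under KO, with COL1A2 and THY1 below 1 CPM. The 6 leukocyte markers found summed to 43.1 and 23.6 CPM in the WT pair against 17.4 and 20.7 CPM in the KO pair, with PTPRC and LYZ below 1 CPM, and the 5 endothelial markers to 8.07 and 6.27 CPM (WT), with 2.88 and 4.80 CPM under KO. Markers of hepatocytes, cells of high sterol synthesis, were all below 1 CPM (4 of 4 found, SERPINA1 at 0 counts). Of 4 adipocyte markers, ADIPOQ, LEP and FABP4 were below 1 CPM too, and PLIN1 passed the filter. PLIN1 was highest in WT replicate 1, with a log2 difference of 1.13 from WT replicate 2. The 4 summed to 1.66 and 0.486 CPM in the WT pair against 0.890 and 0.783 CPM in the KO pair. The part of the low oxygen genes, of the other cell types or of library depth in the sterol gene values was not tested.

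The genes whose pattern over the 4 libraries was most like the mean of the 8 were INTS4, MRPL32, ZBTB14, KCTD1 and OGFOD1. Likeness was the distance between profiles of log2(CPM + 0.5), each centred on its own mean. It was computed for 11949 genes whose mean reached 5 CPM. The distances were 0.03 to 0.04, against a median of 0.68 over the genes compared. Among the 8 themselves DHCR7 was nearest to the mean, at 0.12, and INSIG1 farthest, at 1.28. With 4 libraries many genes take any given profile, and INTS4, for example, was at 27.2, 47.9, 43.5 and 43.0 CPM.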

How the data were processed

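RNA was sequenced in 4 libraries, grouped by the labels. The authors' deposited table gives an estimated count per gene and library and a second value, read as FPKM because its deposited columns sum to 441772 to 452971, not to 1 total. HISAT2, Cufflinks, RSEM and the build GRCm38.p5 are named without versions or roles, per the submitters' processing notes; no annotation, filter or strand setting is stated there. Estimated counts were rounded, filtered with filterByExpr, scaled by TMM (factors 0.966 to 1.026) and tested across all genes in edgeR 4.0.16 (robust quasi-likelihood) under R 4.3.3, with Benjamini-Hochberg adjusted p under 0.05 as a call. The SE was taken as |log2 fold change| over the root of F. DESeq2 1.42.0, limma 3.58.1 on log2(FPKM + 1), other scalings and filters, each library left out and a replicate block were alternatives. The edgeR step was tested on simulated data with the same spread in every library. That check does not cover a library that stands apart, as WT replicate 1 did. Tables and figures used Python 3.11.15.

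The 8 genes and the 7 pathway lists (85 entries, all found) were chosen with earlier results of these data known. Named were the 8 genes, STK26, a set of key sterol genes and the 4 smallest p of each list; ACAT2, ERG28, MVK, MVD, TM7SF2, TMEM97, ACSL3 and ACSS2 were named after their values were seen. Counting errors cover counting only. A two-sided exact permutation test of 2 against 2 libraries cannot go below p = 0.333, so none was run. Some genes of these lists are not reported here by name, and the counts and medians of the lists include them.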

Additional observations from a re-analysis of the deposited data

How the results depend on the processing

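RLE scaling, upper-quartile scaling and the unfiltered fit changed neither the sign nor the call of any of the 51 named genes. The number of genes called, 0 with all 4 libraries, was 40 in DESeq2 and ranged from 0 to 8702 when 1 library was left out, and the number of the 8 sterol genes called ranged from 0 to 7 and their median log2 fold change from -0.22 to 0.72. The 5 CPM filter turned STARD4 (-0.011). On log2(FPKM + 1), with and without the filter, the sign turned for FDFT1 (0.099), ACAT2 (0.299), ACSL3 (0.072) and ACSS2 (0.063), and with a pseudocount of 0.1 for the same genes (0.10, 0.354, 0.075 and 0.067). With 1 library left out, log2 fold changes changed sign for 19 named genes without WT replicate 1, for 6 others without WT replicate 2, for 2 without KO replicate 1 and for 5 without KO replicate 2. They ranged from -0.22 to 1.48 for HMGCS1, -0.22 to 1.18 for SQLE, -0.31 to 1.57 for IDI1, -0.037 to 0.47 for FDPS, -0.44 to 0.73 for LSS, -0.23 to 0.71 for DHCR7, -0.62 to 0.23 for INSIG1, -0.15 to 0.18 for STARD4, -0.26 to 0.12 for SCAP, -1.68 to 0.51 for INSIG2, -0.74 to 0.63 for MSMO1, -0.31 to 1.29 for CYP51A1, -0.089 to 0.51 for FASN, -0.14 to 0.054 for SCD, -0.086 to 1.49 for HSD17B7, -1.75 to 0.27 for ABCG1, -0.035 to 0.77 for SOAT1, -4.38 to 0.18 for NDRG1, -3.55 to 0.16 for ANKRD37, -0.85 to 0.74 for ERG28, -0.83 to 1.72 for ACAT2, -0.13 to 2.11 for MVK, -0.42 to 0.41 for ACSL3, -0.48 to 0.39 for ACSS2 and -0.10 to 0.77 for TMEM97. The cause was not tested.

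Samples of the same number did not deviate together (correlation of deviations -0.175 across genes), and the labels do not say that the numbers pair them. With the replicate number as a block, 10 genes (STK26 among them, adjusted p = 0.0104) and 0 of the 8 were called, ACAT2 (0.379) changed sign, and with the numbers crossed, a fit chosen after seeing the data, 4 genes and 0 of the 8 were called.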
